A study of Mus musculus with 23 samples.

Results

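The response of the testis of NZO/HlLtJ mice to dietary fat was examined in 8 of the 23 RNA sequencing libraries of the series, chosen by the strain, tissue and diet written in the sample titles. In 4 of these libraries the male mice had eaten a diet with 44% fat, and in the other 4 a control diet with 10% fat. Both diets carry the word fiber in their names, and the design text of the series describes the high-fat diet as rich in sugar too, so fat and sugar cannot be told apart. All mice were labelled wild type, went onto their diet at 6 weeks of age and gave tissue at 16 weeks. The other 15 libraries come from C57BL/6J and CAST/EiJ testis on the same pair of diets and are used here to estimate the spread and, in 1 paragraph, to compare the diet effects.

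NZO/HlLtJ, the New Zealand Obese strain, is a polygenic model in which males gain fat early and many become diabetic. The testis holds seminiferous tubules, in which spermatogonia pass through meiosis and become spermatids beside their Sertoli cells, and an interstitium with Leydig cells, which turn cholesterol into testosterone. In obese males of several species, reports describe low testosterone and poor sperm, which is the background to feeding a fat diet and reading testis RNA. Body weight, glucose and hormone levels of these mice are not analysed here.

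The libraries carried the RNA of whole testis. Prm1, which packs sperm DNA, averaged 1144 ± 37.1 CPM on 44% fat and 1212 ± 166 CPM on 10% fat (SD, n = 4 each), and Ddx4, a germ cell helicase, averaged 565 ± 13.5 CPM on 44% fat and 559 ± 34.2 CPM on 10% fat. The Leydig cell enzyme gene Hsd3b1 averaged 333 ± 10.2 CPM on 44% fat and 302 ± 34.8 CPM on 10% fat, and the Sertoli cell factor gene Sox9 averaged 23.4 ± 2.16 CPM on 44% fat and 21.3 ± 2.25 CPM on 10% fat. CPM is a gene's count per 1e+06 (M) counts of its library after TMM scaling, which sets libraries of unlike composition on 1 scale. In bulk tissue, fewer cells of a type and less RNA per cell cannot be told apart.

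Library totals were 31.9 to 40.9 M estimated counts on 44% fat and 34.2 to 43.4 M on 10% fat. Replicates differed by more than counting error, with a chi-square per degree of freedom of 3.47 to 15.8 between libraries of 1 diet. No label states that the replicates came from separate animals, so p-values measure the spread between these samples. On the first principal component of the 8 libraries (19.5% of the variance), 44% fat replicate 3 at 39.0 and 10% fat replicate 4 at 25.95 stood apart from the other 6, at -21.9 to 3.96. The ID numbers in the titles fall into 3 runs, which no label calls batches. Replicates 1 and 2 of both diets belong to the first run, 44% fat replicates 3 and 4 to the second, and 10% fat replicates 3 and 4 to the third, so outside the first run diet and run cannot be told apart.

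The comparison of the diets asks which testis transcripts differ after 10 weeks of high-fat feeding. A single gene rose, Slc38a2, which encodes an amino acid transporter, and no gene fell at a Benjamini-Hochberg adjusted p under 0.05 in the edgeR quasi-likelihood test. Of 22873 genes tested, 0.00437% were called higher and 0% lower. At an unadjusted p under 0.05 there were 1555 genes, 841 higher (3.68%) and 714 lower (3.12%), and DESeq2 called 5 genes higher (0.0219%) and 2 lower (0.00874%). In 426 genes (1.86%) all 4 libraries on 44% fat lay above all 4 on 10% fat, and in 392 genes (1.71%) all lay below. The median log2 fold change of all genes, 44% fat minus 10% fat, was -0.0019, and 49.2% of genes were above 0. Changes were small in general: of 17046 genes with a mean of at least 1 CPM, 6 had a log2 fold change beyond 1 in either direction, and 90% lay within 0.206 of 0. The median standard error (SE) of these genes was 0.0854, so a difference much smaller than that of Slc38a2 was not detectable in most of them.

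**Figure D1:**
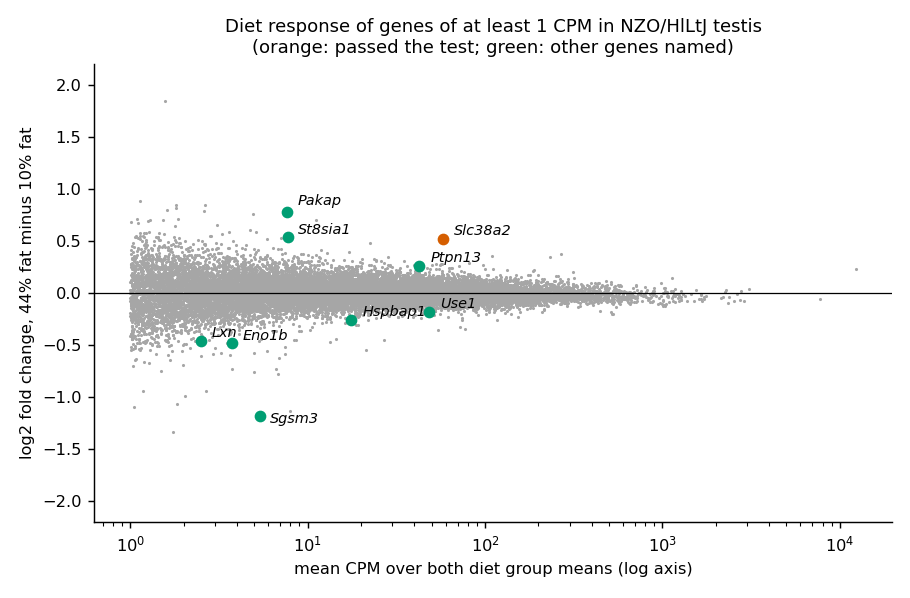
Log2 fold change (44% fat minus 10% fat) against mean CPM, on a log axis, for the 17046 genes of at least 1 CPM in NZO/HlLtJ testis. Slc38a2 (orange), at 0.52, passed the test, and the green points are other named genes with a small p. Most genes lie within 0.206 of 0.

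Slc38a2 (ENSMUSG00000022462) encodes SNAT2, a sodium-coupled carrier that brings small neutral amino acids such as alanine and glutamine into cells. In cultured cells of several species its transcript is known to rise when amino acids run short, through the transcription factor ATF4, and under osmotic stress. The gene lies on the minus strand at chr15:96687394-96699698 of GRCm38. Because ATF4 is one of its known regulators, the 250 bases before its RefSeq start, which lies slightly upstream of the gene end given here, and those before the start of Asns, a textbook ATF4 target that makes asparagine, were read from RefSeq (GRCm38.p6) for the 8-letter core of the C/EBP-ATF response element, TGATGNAA, on both strands. Capitals mark a match. The Slc38a2 window is chr15:96699729-96699978 and the Asns window chr6:7693210-7693459, both on the minus strand and printed 5′ to 3′.
Slc38a2: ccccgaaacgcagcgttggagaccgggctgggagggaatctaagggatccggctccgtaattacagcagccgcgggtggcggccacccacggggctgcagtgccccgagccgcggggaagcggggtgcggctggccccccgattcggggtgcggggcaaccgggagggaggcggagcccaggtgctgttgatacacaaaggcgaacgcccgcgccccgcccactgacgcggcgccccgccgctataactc
Asns: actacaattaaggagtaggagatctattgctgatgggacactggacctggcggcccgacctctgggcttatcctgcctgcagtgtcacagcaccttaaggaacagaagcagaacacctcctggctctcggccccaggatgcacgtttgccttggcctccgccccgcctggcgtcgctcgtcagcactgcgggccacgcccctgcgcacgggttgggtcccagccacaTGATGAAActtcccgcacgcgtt
The Asns window holds 1 match, which begins 23 bases before the start, and the Slc38a2 window holds 0. Of all 32851 windows of this length, 3.45% hold a match. Of the 22 genes listed here as ATF4 targets, 19 have a window and 7 of these hold a match (Asns, Atf3, Chac1, Fgf21, Nupr1, Slc7a11 and Vldlr). For the human SLC38A2 gene, the element that responds to amino acids was described inside the first intron, which these windows do not cover.

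Slc38a2 had 66.8, 66.1, 57.9 and 82.1 CPM in replicates 1 to 4 on 44% fat, against 45.1, 53.2, 43.3 and 48.8 CPM on 10% fat. The groups did not overlap, and the lowest library on 44% fat stood above the highest on 10% fat by a small margin. The means were 68.2 ± 10.1 CPM on 44% fat and 47.6 ± 4.35 CPM on 10% fat (SD, n = 4 each), a 1.43-fold rise (log2 fold change 0.52, SE 0.09, edgeR adjusted p = 0.0363). Between 1599 and 2946 counts per library stood behind these values. The call was close to its threshold. Among the single libraries left out in turn, it was lost without 44% fat replicate 1 (adjusted p = 0.122), 2 (0.107) or 4 (0.175) and without 10% fat replicate 1 (0.115) or 3 (0.210), while the log2 fold change stayed between 0.42 and 0.59. It was also lost when the 8 libraries were fitted alone (log2 fold change 0.52, adjusted p = 0.204), with the run of title IDs as a covariate (0.52, adjusted p = 0.190) and within the first run, with 2 libraries against 2 (0.44, adjusted p = 0.636). The values of that run were 66.8 and 66.1 CPM on 44% fat against 45.1 and 53.2 CPM on 10% fat.

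**Figure D2:**
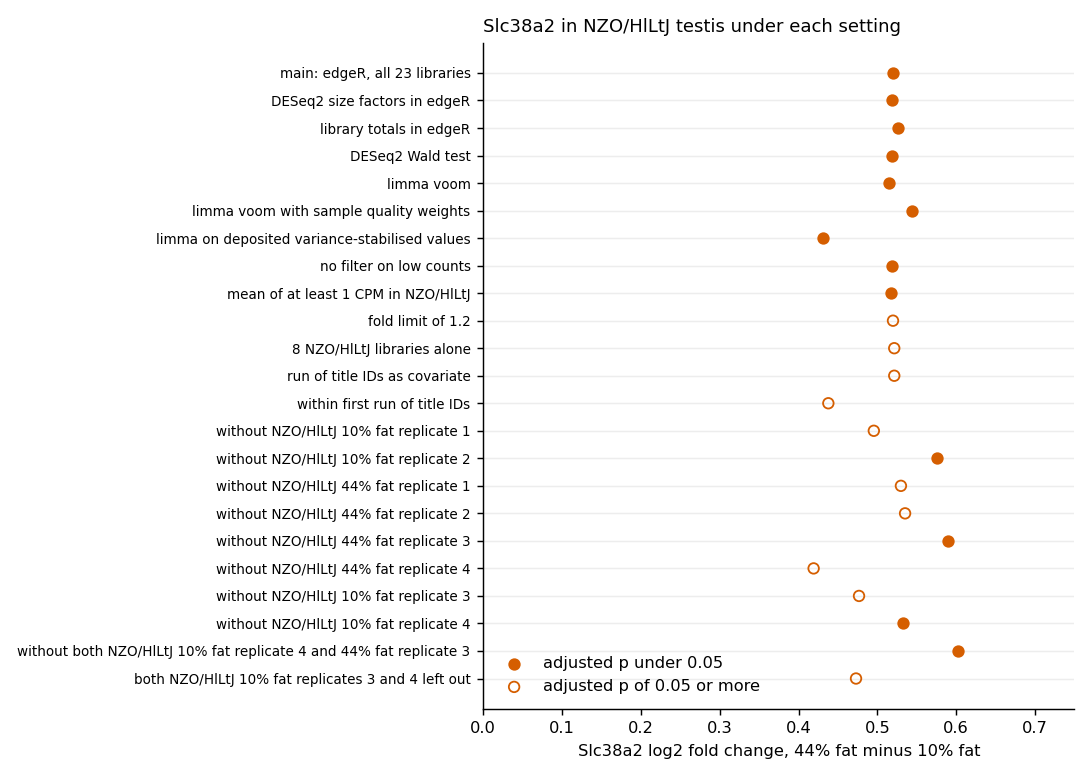
Log2 fold change of Slc38a2 (44% fat minus 10% fat, horizontal axis) under each setting tried (rows). Every value lies between 0.42 and 0.60, and filled points, where the adjusted p was under 0.05, include the settings with other scaling or tools but not the fit of the 8 libraries alone.

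No other carrier of the family passed. The remaining 9 members of the SLC38 family that were tested had adjusted p-values of 0.723 or more. Slc38a1, which carries much the same amino acids as Slc38a2, averaged 11.3 ± 2.08 CPM on 44% fat and 12.1 ± 5.28 CPM on 10% fat (log2 fold change -0.11, SE 0.26). Slc38a9, a lysosomal arginine sensor upstream of mTORC1, had 70.4, 70.4, 74.4 and 71.8 CPM on 44% fat against 68.9, 69.4, 62.4 and 65.8 CPM on 10% fat. Its groups did not overlap, but the difference was small (0.11, SE 0.05, adjusted p = 0.723). Per kilobase of exon, Slc38a6 had the highest level in the family, with 15.1 CPM per kb on 44% fat and 14.9 CPM per kb on 10% fat, and Slc38a2 had 7.72 CPM per kb on 44% fat and 5.39 CPM per kb on 10% fat.

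The 22 listed genes of the amino acid stress response had a median whose sign depended on the libraries. Slc38a2 was the 1 member called, 10 members were above 0 and 12 below, and their median log2 fold change was -0.022. It was 0.110 within the first run of title IDs, with 16 of 22 above 0. Atf4 itself, the transcription factor of the response, had 36.0, 32.4, 31.0 and 35.3 CPM on 44% fat against 27.2, 27.8, 28.5 and 32.0 CPM on 10% fat. Here 10% fat replicate 4 reached into the range of the 44% fat libraries, and the difference did not pass (log2 fold change 0.22, SE 0.06, adjusted p = 0.610). Asns averaged 110 CPM on 44% fat and 116 CPM on 10% fat (log2 fold change -0.08). Chac1, which breaks down glutathione, was at -0.39, the serine synthesis gene Psat1 at 0.12, and Slc7a11, the cystine carrier gene, at 0.22. Of the partners of the leucine carrier, Slc7a5 was at -0.021 and Slc3a2 at -0.024. In 10% fat replicate 4 the mean level of the list was 0.200 above its mean over the 8 libraries on the log2 scale, and in the other 10% fat libraries it was -0.112 to -0.062.

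Of the other genes higher on 44% fat, St8sia1, Pakap and Ptpn13 had small p-values, and none of them passed in edgeR. St8sia1, which encodes the sialyltransferase that makes ganglioside GD3, had 7.70, 11.4, 8.94 and 8.39 CPM on 44% fat against 5.67, 6.998, 6.53 and 6.02 CPM on 10% fat (log2 fold change 0.53, SE 0.11, adjusted p = 0.224). Every 44% fat library was above every 10% fat library.
Ptpn13, a protein tyrosine phosphatase gene, had 43.5, 47.0, 49.4 and 46.5 CPM on 44% fat against 40.6, 41.6, 34.9 and 38.4 CPM on 10% fat (0.26, SE 0.06, adjusted p = 0.267). DESeq2 called all 3 of these genes, with adjusted p-values of 0.0186 to 0.0298. Pakap had 10.5, 7.61, 10.1 and 10.3 CPM on 44% fat against 3.81, 6.69, 6.24 and 5.68 CPM on 10% fat (0.77, SE 0.17, adjusted p = 0.224). Pakap joins the neighbouring genes Palm2 and Akap2, with which it shares exons, so its counts are uncertain. The sum of all 3 was 47.6 ± 2.67 CPM on 44% fat and 47.9 ± 2.49 CPM on 10% fat (SD, n = 4 each), and Akap2, whose protein anchors protein kinase A, averaged 35.3 CPM on 44% fat and 39.0 CPM on 10% fat.

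Among genes lower on 44% fat, the smallest p belonged to Eno1b, Sgsm3, Hspbap1, Lxn and Use1. Eno1b, a near copy of the enolase gene Eno1, had 3.38, 2.97, 2.75 and 3.34 CPM on 44% fat against 4.23, 4.28, 4.59 and 4.26 CPM on 10% fat (log2 fold change -0.48, SE 0.10, adjusted p = 0.224). Its groups were well apart, and DESeq2 called it lower (adjusted p = 0.0298), but reads can be shared between the copies. Eno1 and Eno1b together stood at 332 ± 17.6 CPM on 44% fat and 346 ± 23.6 CPM on 10% fat (SD, n = 4 each). Eno1 alone averaged 329 CPM on 44% fat and 341 CPM on 10% fat, so the sum cannot show a change as small as that of Eno1b.
Sgsm3, which regulates small G proteins, is named by 2 gene IDs, and the one with the small p (ENSMUSG00000103565) had 3.89, 4.44, 2.13 and 2.56 CPM on 44% fat against 11.6, 4.25, 4.97 and 9.005 CPM on 10% fat (-1.18, SE 0.28, adjusted p = 0.437). The groups overlapped, and the sum of both IDs was 53.8 ± 2.97 CPM on 44% fat and 54.4 ± 2.72 CPM on 10% fat.
Hspbap1, whose product binds the small heat shock protein HSPB1, had 15.1, 16.8, 15.99 and 16.4 CPM on 44% fat against 18.2, 20.1, 19.4 and 19.1 CPM on 10% fat (-0.26, SE 0.07, adjusted p = 0.556). Lxn, the gene of the carboxypeptidase inhibitor latexin, had 2.24, 2.27, 1.78 and 2.15 CPM on 44% fat against 2.91, 2.95, 2.93 and 2.86 CPM on 10% fat (-0.46, SE 0.12, adjusted p = 0.610). Use1, a SNARE gene of traffic from Golgi to endoplasmic reticulum, had 45.1, 46.5, 45.2 and 45.3 CPM on 44% fat against 52.6, 47.8, 52.8 and 53.2 CPM on 10% fat (-0.18, SE 0.05, adjusted p = 0.631). In each of these last 3 the 44% fat libraries all lay below the 10% fat libraries.
Gm20775, a pseudogene on the Y chromosome, has no official symbol and was added after its values were seen, because its adjusted p of 0.0844 was the second smallest. It had 0.054, 0.257, 0.0296 and 0.251 CPM on 44% fat against 1.07, 1.90, 0.872 and 2.17 CPM on 10% fat (-3.26, SE 0.59). Its diets were far apart on very few counts, and DESeq2 called it.

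**Figure D3:**
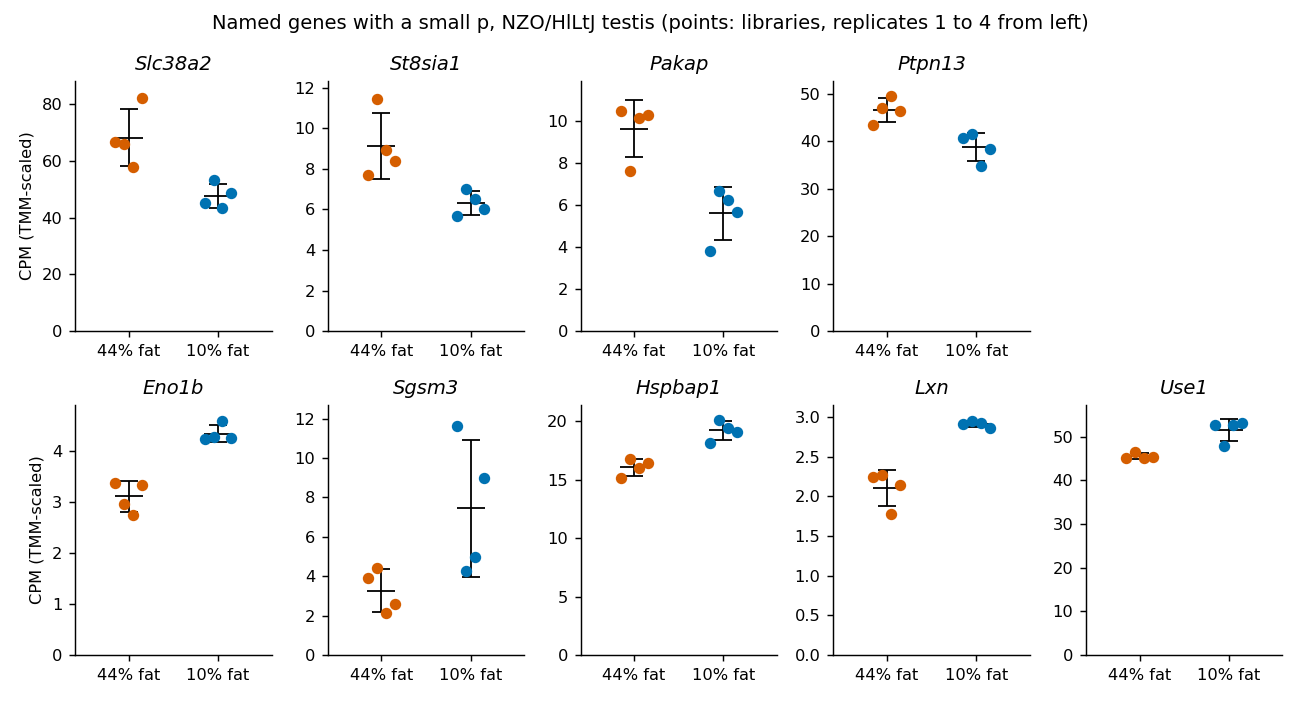
CPM of 9 named genes with a small p, higher on 44% fat in the top row and lower in the bottom row. Points are libraries, crossbars means and bars SD (n = 4). Sgsm3 is the second of 2 gene IDs of that symbol. In all panels but that of Sgsm3, the 44% and 10% fat libraries do not overlap.

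Gene groups were described by counts and medians, beside the whole table. The 41 lists hold 752 distinct tested genes, of which Slc38a2 was called, 51 were higher and 23 lower at an unadjusted p under 0.05, against 3.68% and 3.12% of all genes. The medians of 16 lists changed sign within the first run, 14 of them to above 0, where the median of all genes was 0.0015, and with 10% fat replicates 3 and 4 left out 14 changed sign. In Leydig cells, the markers and enzymes of steroid synthesis had 9 of 18 above 0 and a median log2 fold change of -0.012 over all 8 libraries, and 14 of 18 and 0.204 within the first run of title IDs. Star, which delivers cholesterol to the mitochondrion for the first step of synthesis, had 87.7, 73.6, 50.04 and 44.7 CPM on 44% fat against 45.8, 56.3, 137 and 80.7 CPM on 10% fat. The libraries were mixed, and the direction depended on them: the log2 fold change was -0.32 (SE 0.26) over all 8, 0.66 within the first run of title IDs and 0.07 without 10% fat replicate 3. Cyp11a1, which cuts the cholesterol side chain, averaged 68.2 ± 18.5 CPM on 44% fat and 86.6 ± 25.9 CPM on 10% fat (SD, n = 4 each), and Cyp17a1, which leads to androgens, averaged 488 ± 54.2 CPM on 44% fat and 561 ± 102 CPM on 10% fat. The log2 fold change of Cyp17a1 was -0.20 over all libraries and 0.13 within the first run. Hsd17b3, which forms testosterone, averaged 59.0 ± 3.70 CPM on 44% fat and 57.9 ± 9.96 CPM on 10% fat, and the luteinizing hormone receptor gene Lhcgr 25.2 ± 3.66 CPM on 44% fat and 26.7 ± 3.48 CPM on 10% fat. Insl3, a peptide hormone gene of Leydig cells, averaged 185 ± 46.2 CPM on 44% fat and 164 ± 51.3 CPM on 10% fat.

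Hsd3b6 was the 1 member of the 18 in the Leydig list whose groups did not overlap. Of all genes, 1.71% lay wholly lower on 44% fat. It encodes a 3-beta-hydroxysteroid dehydrogenase, as Hsd3b1 does, and had 3.59, 3.01, 4.68 and 3.51 CPM on 44% fat against 5.62, 6.01, 5.99 and 7.25 CPM on 10% fat. Every library on 44% fat was lower, but the difference did not pass (log2 fold change -0.76, SE 0.22, adjusted p = 0.688), and reads can be shared with the far more abundant Hsd3b1. Their sum was 337 ± 10.8 CPM on 44% fat and 308 ± 35.5 CPM on 10% fat (SD, n = 4 each). Hsd3b1 makes up nearly all of it, so the sum cannot show a change as small as that of Hsd3b6.

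The germ cell lists showed no called gene. Over all 8 libraries, markers of undifferentiated spermatogonia had 8 of 13 above 0 (median log2 fold change 0.050), of differentiating spermatogonia 6 of 10 (0.041), of meiotic prophase 13 of 25 (0.0014) and of round spermatids 4 of 19 (-0.043). Elongating spermatid markers were above 0 in 1 of 18, with a median of -0.066 over all libraries and -0.037 within the first run. Stra8, which retinoic acid switches on before meiosis, had 10.6, 9.41, 11.99 and 12.5 CPM on 44% fat against 9.26, 8.95, 8.12 and 9.70 CPM on 10% fat (0.30, SE 0.10, adjusted p = 0.720). Catsper3, part of the calcium channel of the sperm tail, had 50.7, 45.5, 45.04 and 46.6 CPM on 44% fat against 51.8, 52.9, 57.5 and 53.1 CPM on 10% fat (-0.20, SE 0.06, adjusted p = 0.688). Stra8 overlapped between the diets by 1 library of each and Catsper3 did not overlap. Of the 19 round spermatid markers, 2 lay wholly lower on 44% fat, against 1.71% of all genes. Genes of the flagellum had 12 of 25 above 0 (-0.0073), and those of the piRNA pathway, which silences transposons in germ cells, 6 of 19 (-0.0094). Of somatic markers, those of Sertoli cells were above 0 in 16 of 22 (0.041), of the blood-testis barrier in 12 of 17 (0.058), of peritubular myoid cells in 4 of 11 (-0.046) and of endothelial cells in 6 of 11 (0.0015). Within the first run the meiotic list had 4 of 25 above 0 (-0.038), the flagellum list 4 of 25 (-0.032), the peritubular list 9 of 11 (0.138) and the endothelial list 7 of 11 (0.094).

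Of the lipid and sterol genes, which a fat diet moves in liver, none was called in the testis. Over all 8 libraries, genes of cholesterol synthesis had a median log2 fold change of -0.061 with 6 of 23 above 0, of fatty acid synthesis -0.0017 with 7 of 16, of fatty acid uptake and oxidation -0.012 with 15 of 32, and of cholesterol efflux -0.025 with 6 of 14. Cpt1a, which admits fatty acids to the mitochondrion, averaged 68.7 ± 2.93 CPM on 44% fat and 65.4 ± 7.58 CPM on 10% fat (SD, n = 4 each), and Fasn, which builds them, 182 ± 4.48 CPM on 44% fat and 182 ± 11.7 CPM on 10% fat. Within the first run the list of fatty acid uptake and oxidation had 24 of 32 above 0 and a median of 0.127, and the cholesterol list 19 of 23 and 0.072. The cholesterol list's mean level was highest in 10% fat replicates 3 and 4. Genes of sterol and retinoid handling had 8 of 16 above 0 (-0.016). Pdk4, which spares glucose when fat is burned, had 7.62, 6.73, 5.71 and 7.80 CPM on 44% fat against 5.96, 3.995, 3.51 and 6.07 CPM on 10% fat. The diets overlapped, and the difference did not pass (0.52, SE 0.19, adjusted p = 0.720).

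Insulin and IGF signalling genes were mostly slightly higher, with 19 of 24 above 0, a median log2 fold change of 0.077 and none called. The insulin receptor gene Insr had 39.3, 35.9, 38.8 and 37.8 CPM on 44% fat against 40.1, 36.2, 30.1 and 31.8 CPM on 10% fat. In Insr only 10% fat replicates 3 and 4 were low, and its log2 fold change was 0.14 (SE 0.07) over all libraries and -0.016 within the first run. Pdk1 is by its mouse symbol a pyruvate dehydrogenase kinase gene, like Pdk4, and not the insulin pathway kinase gene Pdpk1. Pdk1 had 16.3, 16.8, 19.2 and 17.1 CPM on 44% fat against 15.4, 16.3, 14.3 and 13.9 CPM on 10% fat (0.21, SE 0.07, adjusted p = 0.709). Irs2, which relays the insulin signal, was at 0.17 and Igf1r, the IGF receptor gene, at 0.14. Receptors of metabolic hormones had 13 of 20 above 0 (0.064). Among them the leptin receptor gene Lepr averaged 2.68 ± 0.682 CPM on 44% fat and 2.05 ± 0.339 CPM on 10% fat (SD, n = 4 each, log2 fold change 0.37, edgeR adjusted p = 0.732). Genes of glucose uptake and glycolysis had 6 of 25 above 0 (-0.032).

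Nuclear genes of oxidative phosphorylation were all slightly below 0 (27 of 27), with a median log2 fold change of -0.097 and none called. At an unadjusted p under 0.05, 7 of 27 were lower, against 3.12% of all genes, and in 1, Ndufv1, the diets did not overlap, against 1.71% of all genes. Cox7a2, a subunit of cytochrome c oxidase, had 107, 106, 100 and 106 CPM on 44% fat against 116, 107, 135 and 120 CPM on 10% fat (-0.19, SE 0.06, adjusted p = 0.688). The difference sat in 10% fat replicates 3 and 4. The mean level of the list there was 0.144 and 0.126 above its mean over the 8 libraries on the log2 scale, while 10% fat replicates 1 and 2 were at -0.019 and -0.064 and the 44% fat libraries at -0.082 to -0.026. Within the first run the median was 0.0024, with 16 of 27 above 0. With the run of title IDs as a covariate over all libraries it was -0.112, with 0 of 27 above 0. Ribosomal protein genes, which encode parts of the ribosome, had the same layout, with 2 of 24 above 0. Their median was -0.099 over all libraries, 0.010 within the first run and -0.102 with that covariate. The 13 genes encoded in the mitochondrion had 4 above 0 (-0.033).

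These lists hold short genes, and the diet difference ran with gene length over the whole table. Across 16995 genes of at least 1 CPM with an exon length in GENCODE M21, Spearman's rho of log2 fold change with length was 0.327, a description over genes, which share the same 8 libraries. The median log2 fold change was -0.059 in the shortest of 5 length classes of near-equal size (151 to 1934 bases) and 0.046 in the longest (7065 to 123179 bases), with 29.3% and 71.5% of genes above 0. This correlation was 0.0709 within the first run. The mean level of the longest class minus that of the shortest was 0.0119, 0.0395, 0.132 and 0.0337 in replicates 1 to 4 on 44% fat, against -0.0179, 0.0176, -0.165 and -0.0523 on 10% fat. The extremes were thus 44% fat replicate 3 and 10% fat replicate 3. The median exon length of the oxidative phosphorylation list was 2147 bases and of the ribosomal list 2030 bases. Both lengths fall in the second class (1935 to 3200 bases), whose median log2 fold change was -0.026. The elongating spermatid list had a median length of 1334 bases, in the shortest class. The median length of the insulin list was 8877 bases and of the collagen list 8098 bases. The part of gene length and of the title ID run in the medians of the lists was not tested. Slc38a2, with 8838 bases, lies in the longest class, at 0.52 against that class's median of 0.046.

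**Figure D4:**
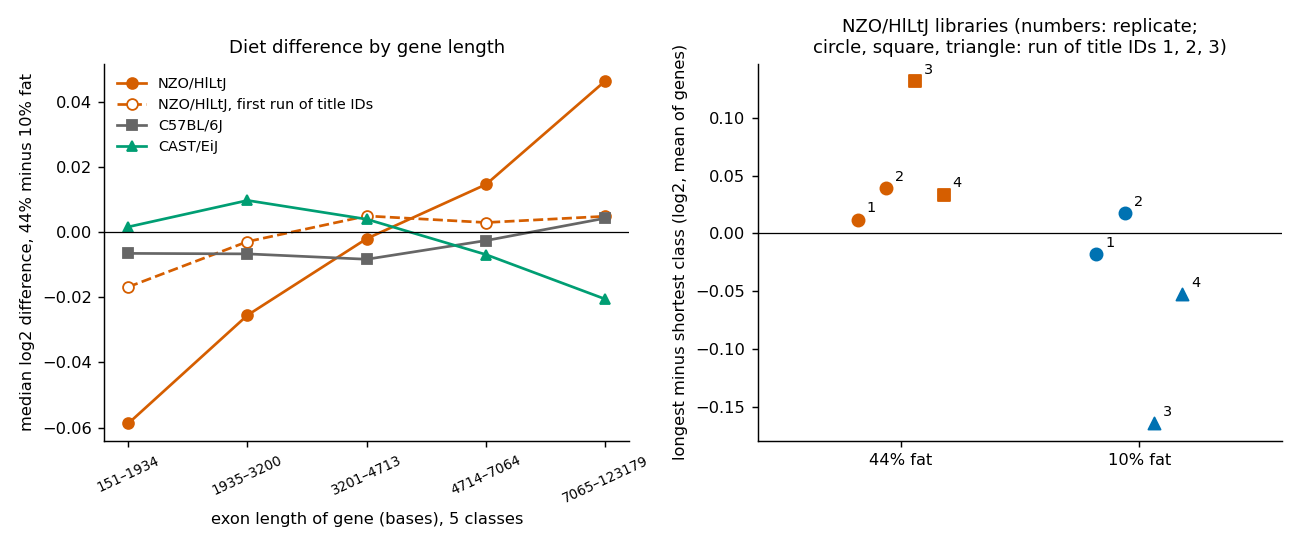
Left, median log2 difference (44% minus 10% fat) in 5 classes of exon length, for NZO/HlLtJ over all 8 libraries and within the first run of title IDs, and for the other strains. It climbs from -0.059 to 0.046 with length in NZO/HlLtJ as a whole. Right, mean level of the longest minus the shortest class in each NZO/HlLtJ library, highest in 44% fat replicate 3 (0.132) and lowest in 10% fat replicate 3 (-0.165).

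Genes of the hypoxia response, which HIF factors turn on when oxygen is low, had 14 of 19 above 0 and a median log2 fold change of 0.117, with none called. At an unadjusted p under 0.05, 6 were higher and 0 lower, against 3.68% and 3.12% of all genes, and 4 had no overlap between the diets, against 1.86% of all genes. Epas1, which encodes HIF-2 alpha, had 40.8, 44.4, 47.9 and 40.5 CPM on 44% fat against 36.4, 39.1, 39.4 and 39.6 CPM on 10% fat (0.17, SE 0.06, adjusted p = 0.723). Hif3a, a related factor, had 6.27, 5.91, 6.19 and 7.24 CPM on 44% fat against 5.56, 5.44, 4.90 and 4.36 CPM on 10% fat (0.34, SE 0.11, adjusted p = 0.688). In both genes every 44% fat library was above every 10% fat library, by little. The other 2 without overlap were Pfkfb3, which drives glycolysis (0.18), and P4ha1, which hydroxylates collagen (0.13), while the vascular growth factor gene Vegfa overlapped (0.25). Within the first run the list's median was 0.148 with 16 of 19 above 0, and leaving out any 1 library gave 0.082 to 0.153. The mean level was 0.030 to 0.098 on 44% fat, against -0.118, -0.083, -0.146 and 0.061 on 10% fat, on the log2 scale relative to the mean over the 8 libraries, so 10% fat replicate 4 lay among the 44% fat libraries. The endothelial markers given above had a median of 0.0015 over all 8 libraries and 0.094 within the first run.

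Glucocorticoid response genes had 13 of 16 above 0, a median of 0.108 and none called, with 5 higher and 1 lower at an unadjusted p under 0.05, against 3.68% and 3.12% of all genes. Nr3c1, the glucocorticoid receptor gene, had 19.6, 19.8, 21.7 and 18.2 CPM on 44% fat against 16.5, 17.3, 17.8 and 18.3 CPM on 10% fat (log2 fold change 0.18, SE 0.06, adjusted p = 0.720). The diets overlapped by 1 library, and 10% fat replicate 3 had the lowest list mean. Klf15 (0.27), Sgk1 (0.26) and Dusp1 (0.34), known targets of the receptor, were higher and Mt2, a metallothionein gene, lower (-0.18), none past the threshold. Other genes of the list were near 0, such as Tsc22d3 (0.030), Per1 (0.038) and Ddit4 (-0.028), and Mt1 was at -0.147. The list's median was 0.060 within the first run, with 13 of 16 above 0. With the run of title IDs as a covariate it was 0.066, with 12 of 16 above 0. Clock genes had 13 of 19 above 0 (0.049). Dusp1 is also an immediate early gene, and the immediate early list, which can reflect handling of tissue, had 10 of 20 above 0 (-0.016). Differences in handling were not tested.

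Over all 8 libraries, no gene of the immune groups was called. The genes of antigen presentation had 17 of 20 above 0 and a median log2 fold change of 0.148, and 44% fat replicate 2 led them. The median was 0.525 within the first run, with 18 of 20 above 0, and 0.075 to 0.353 with 1 library left out. Cd74, the invariant chain of MHC class II, had 13.2, 22.1, 9.77 and 10.2 CPM on 44% fat against 6.01, 9.55, 5.82 and 12.9 CPM on 10% fat (0.70, SE 0.26, adjusted p = 0.720). Of the class II chain genes, H2-Aa had 4.95, 10.5, 3.38 and 4.01 CPM on 44% fat against 2.91, 3.51, 3.49 and 5.22 CPM on 10% fat. Both had their highest value in 44% fat replicate 2 and overlapped between the diets. Macrophage markers, whose cells carry class II in testis, had 11 of 16 above 0 (0.051), 14 of 16 within the first run (0.311), and a median of -0.043 to 0.201 with 1 library left out. Their summed level was 144 to 179 CPM on 44% fat and 138 to 190 CPM on 10% fat, highest in 10% fat replicate 4, none of the 16 was at 0 in all libraries, and their part in the antigen presentation genes was not tested. Lymphocyte markers had 6 of 9 above 0 (0.132) and summed to 13.1 to 15.7 CPM on 44% fat and 13.1 to 14.3 CPM on 10% fat.

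Complement and coagulation genes had 12 of 20 above 0 (median log2 fold change 0.049), with 6 higher and 0 lower at an unadjusted p under 0.05, against 3.68% and 3.12% of all genes. The median was 0.211 within the first run and 0.041 to 0.245 with 1 library left out, highest without 10% fat replicate 4. C3, the central complement protein gene, had 21.6, 32.5, 20.8 and 29.4 CPM on 44% fat against 15.4, 20.8, 16.6 and 22.2 CPM on 10% fat (0.48, SE 0.20, adjusted p = 0.723). C4b, which acts upstream of C3, had 14.3, 14.3, 14.3 and 15.02 CPM on 44% fat against 8.75, 9.69, 8.32 and 17.6 CPM on 10% fat (0.38, SE 0.15, adjusted p = 0.723). In C4b a single library, 10% fat replicate 4, was above all others, and without it C4b and Serpina3n, an acute-phase protease inhibitor gene, were called higher on 44% fat, with 5 genes called in all. Serpina3n had 4.03, 2.99, 4.56 and 3.54 CPM on 44% fat against 1.38, 1.87, 1.43 and 4.82 CPM on 10% fat. Genes of inflammation had 11 of 20 above 0 (0.042) and interferon response genes 17 of 28 (0.054), which was 22 of 28 (0.235) within the first run.

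Collagen and matrix genes had 24 of 27 above 0 and a median log2 fold change of 0.089, with none called. The median was 0.161 within the first run. It was 0.018 with the run of title IDs as a covariate, where 16 of 27 were above 0. With 1 library left out it was 0.011 to 0.153. Decorin, a small matrix proteoglycan encoded by Dcn, had 42.6, 53.2, 54.8 and 54.0 CPM on 44% fat against 38.1, 43.3, 42.6 and 49.2 CPM on 10% fat (0.24, SE 0.09, adjusted p = 0.720). Its diets overlapped, with 44% fat replicate 1 at the low end. Col1a1, of fibrillar collagen, averaged 37.2 ± 7.31 CPM on 44% fat and 34.95 ± 5.12 CPM on 10% fat (SD, n = 4 each).

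No gene of the other stress lists was called. Over all 8 libraries the unfolded protein response had 8 of 22 above 0 (median log2 fold change -0.019), heat shock 11 of 21 (0.00053) and antioxidant genes 9 of 27 (-0.066). The antioxidant list had 22 of 27 above 0 (0.067) within the first run. Hspa5, the main chaperone of the endoplasmic reticulum, averaged 607 ± 16.3 CPM on 44% fat and 605 ± 15.96 CPM on 10% fat (SD, n = 4 each). Nnt, a mitochondrial source of NADPH whose gene is broken in C57BL/6J, averaged 55.2 ± 2.12 CPM on 44% fat and 54.97 ± 1.46 CPM on 10% fat. Of tissues that may adhere to a testis, fat cell markers had 2 of 12 above 0 (-0.114) and summed to 10.7 to 18.9 CPM on 44% fat and 12.7 to 20.9 CPM on 10% fat, epididymis and rete testis markers had 5 of 10 (-0.020), and red blood cell markers 1 of 8 (-0.251). The mean level of the red blood cell list was -0.236 to -0.014 on 44% fat, against -0.242, -0.157, 0.448 and 0.432 in replicates 1 to 4 on 10% fat, so the difference sat in 10% fat replicates 3 and 4. Within the first run the red blood cell list had 5 of 8 above 0 (0.034) and the fat cell list 2 of 12 (-0.382). The globin genes of red blood cells summed to 27.7 ± 4.22 CPM on 44% fat and 38.6 ± 13.2 CPM on 10% fat, with the highest sums on 10% fat.

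**Figure D5:**
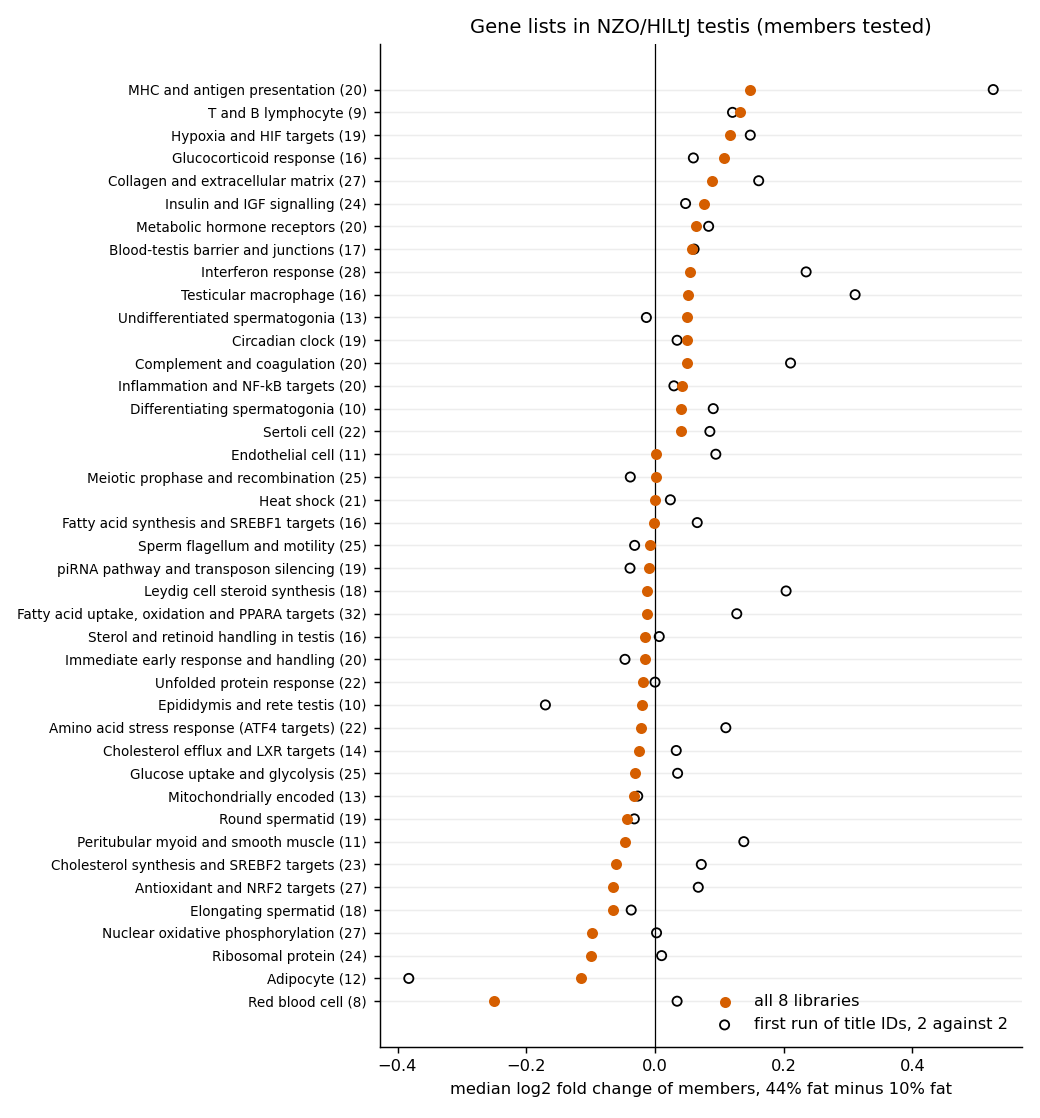
Median log2 fold change (44% fat minus 10% fat) of the tested members of each of 41 gene lists, over all 8 NZO/HlLtJ libraries (orange) and within the first run of title IDs (open, 2 libraries against 2). The number of tested members stands in parentheses. Over all libraries the medians lie between -0.251 (red blood cell) and 0.148 (antigen presentation). The oxidative phosphorylation and ribosomal lists move to near 0 within the first run. With the run as a covariate over all libraries, which is not drawn, they were at -0.112 and -0.102.

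Whether the diet effect of NZO/HlLtJ differs from the mean effect of C57BL/6J and CAST/EiJ was tested in the same fit. No gene passed (0% of those tested, 1493 at an unadjusted p under 0.05), while DESeq2 called 2 (0.00874%). Slc38a2 had a diet effect of 0.52 in NZO/HlLtJ, -0.0035 (SE 0.09) in C57BL/6J and -0.069 (SE 0.09) in CAST/EiJ, and the difference, 0.56 (SE 0.11), had the smallest adjusted p of the table, 0.194, which misses the threshold. Slc38a2 averaged 68.2 ± 10.1 CPM in NZO/HlLtJ on 44% fat and 47.6 ± 4.35 CPM on 10% fat (SD, n = 4 each). Libraries of C57BL/6J had 36.6 to 40.9 CPM on 44% fat and 35.4 to 46.1 CPM on 10% fat (n = 4 each), and those of CAST/EiJ had 40.6 to 47.9 CPM on 44% fat (n = 4) and 44.4 to 51.2 CPM on 10% fat (n = 3). Each 44% fat library of NZO/HlLtJ was above every library of the other 5 groups. Ptpn13 differed in its diet effect from the other strains by 0.31 (SE 0.07, adjusted p = 0.406) and Eno1b by -0.49 (SE 0.11, adjusted p = 0.406). On 44% and 10% fat, Eno1b averaged 3.11 and 4.34 CPM in NZO/HlLtJ, but 53.4 and 56.8 CPM in C57BL/6J and 96.8 and 90.4 CPM in CAST/EiJ. The Sgsm3 ID with the small p differed by -1.56 (SE 0.34, adjusted p = 0.397) and Hspbap1 by -0.35 (SE 0.08, adjusted p = 0.406). The diet effect of Pakap was 0.77 in NZO/HlLtJ, -0.50 (SE 0.17) in C57BL/6J and 0.37 (SE 0.17) in CAST/EiJ.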

How the data were processed

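Testis RNA was sequenced in 23 libraries of 6 groups; polyA libraries were read as 100 bp pairs on a NovaSeq, per the labels' protocols. The deposited count table gives the authors' estimated counts for 28861 genes, 27.9% of them not whole, and log2 values after variance stabilisation by the authors, also deposited, served as an alternative. The submitters' processing notes name GRCm38 and DESeq2; no aligner, counting tool or strand setting is given in the sources used here. Each listed gene had a count in at least 12 libraries, so rarer genes had been removed before deposit. Spike-in rows numbered 0, so all values are relative to each library's total.

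Counts were rounded and filtered with filterByExpr (22873 genes left). edgeR 4.0.16 (quasi-likelihood F test, R 4.3.3, TMM, 1 mean per group, all 23 libraries) gave 44% fat minus 10% fat in NZO/HlLtJ, adjusted over all genes, with a threshold of 0.05. Alternatives used DESeq2 1.42.0 and limma 3.58.1. Named genes are the 5 with the smallest p in each direction (official symbol, mean of at least 1 CPM), called list members and 12 fixed genes, of which 2 in all are not reported here; genes named within lists beyond these, and those called under an alternative alone, were chosen after their values were seen. The members and lists were chosen with earlier results of these data known. Exon lengths came from GENCODE M21 and sequences from RefSeq. Total counts of 31.9 to 43.4 M per library leave counting error small beside the spread between replicates for genes with many counts. That does not hold for genes with few counts, such as Lxn (60 to 131 counts per library) and Eno1b (93 to 205).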

Additional observations from a re-analysis of the deposited data

Results flagged for a closer look

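Single libraries stood apart from the other 3 of their diet by Dixon's test in 11 of 126 groups of values tested. Chance gives about 1 in 20 for a single group. The groups share the same 8 libraries and some of the same genes, so their count cannot be judged against that share. Of the 11, 5 concern 10% fat replicate 4. In that library Hsd3b1 had 353.9 CPM (others 280.8 to 286.4) and Insl3 240.5 CPM (others 133.3 to 141.9). Its mean level, in log2 CPM relative to the mean over NZO/HlLtJ, was 0.1441 for differentiating spermatogonia, 0.2000 for the amino acid stress response and 0.1760 for collagen and extracellular matrix, above the other 3 libraries in each case.

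In 44% fat replicate 2, Pakap was low at 7.614 CPM (others 10.13 to 10.48) and Use1 high at 46.53 CPM (others 45.07 to 45.27). In 10% fat replicate 2, Use1 was low at 47.80 CPM (others 52.62 to 53.21). Eno1b was high in 10% fat replicate 3, at 4.585 CPM (others 4.235 to 4.278). The mean level of macrophage markers was low in 44% fat replicate 4, at -0.1096, and that of lymphocyte markers high in 10% fat replicate 1, at 0.1562. No cause of these values was tested.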

How the results depend on the processing

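The count of called genes, 1 in the edgeR test, was also 1 with DESeq2 size factors, library totals, limma voom with and without quality weights, the deposited log2 values or a minimum of 1 CPM. It was 7 with the DESeq2 Wald test, 2 without a filter on low counts (Slc38a2 and the low-count gene Gm20775), 0 with a fold limit of 1.2, with the 8 libraries alone, with the run of title IDs as covariate and within the first run, 3 without both 10% fat replicate 4 and 44% fat replicate 3, and 0 with 10% fat replicates 3 and 4 both left out, a setting chosen after seeing the data. Leaving out each library in turn gave 0 to 5 (5 without 10% fat replicate 4, 2 without 10% fat replicate 2). The comparison with the other strains gave 2 genes with DESeq2 and 0 to 3 with each library left out, against 0. For the named genes, Star turned to 0.032 with the run covariate, 0.66 within the first run and 0.33 without 10% fat replicates 3 and 4 (-0.51 to 0.071 with 1 library left out), Cyp17a1 to 0.13 and 0.037, and Insr to -0.016 and -0.0062, in the last 2 settings. Prm1 was 0.0068 within the first run (-0.13 to 0.0056), and Nnt was -0.0036 with quality weights, -0.0021 without both libraries that stood apart and -0.016 without 10% fat replicates 3 and 4 (-0.016 to 0.026). Hspa5 (-0.0093 to 0.022) changed sign around 0 with 1 library left out. Of the 41 list medians, 16 moved by more than the replicate spread within the first run and 13 without 10% fat replicates 3 and 4, and 33 of 902 did over all settings. The cause of these changes was not tested. No paired analysis was possible because the labels carry no replicate numbers that pair the mice of the 2 diets.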
